A study of Mus musculus with 7 samples.

Results

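Binding of the transcription factors (TFs) PU.1 and MITF was compared in mouse myeloid precursors (MPs), using the peak list of 1 PU.1 ChIP-Seq library and of 1 MITF ChIP-Seq library. Peaks on chromosomes 1 to 19 and X entered, which were 76159 PU.1 peaks and 5402 MITF peaks, or 81561 of the 239001 peaks in the 7 lists of the series. A peak of one factor that shared at least 1 bp with a peak of the other was called co-bound, and the remaining peaks were called PU.1-only or MITF-only. There were 5297 co-bound and 70862 PU.1-only PU.1 peaks, and 5297 co-bound and 105 MITF-only MITF peaks. No PU.1 peak overlapped more than 1 MITF peak, and the reverse also held.

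MPs were bone marrow myeloid cells of C57BLACK6 mice 4 to 6 weeks old, cultured for 3 days in 50 ng/ml CSF1, the growth factor of the macrophage lineage. Chromatin was precipitated with 5 µg of a PU.1 or a MITF antibody, and pre-immune IgG was used on MPs as the control. The other libraries came from cells that also received 100 ng/ml RANKL, the cytokine that induces osteoclasts (OCs), for 36 h, or for 72 h to give OCs. Each condition had 1 library, so no difference here has a replicate check, and the 95% intervals (Wilson for a share, Newcombe for a difference of shares) cover counting error only.

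PU.1, encoded by Spi1, is an ETS family TF that binds purine-rich DNA around a GGAA core and is required to form macrophages and OCs. MITF, a leucine zipper TF of the MITF/TFE family with a helix-loop-helix domain, binds E-boxes such as CACGTG and CATGTG, and it is known as a regulator of melanocytes, lysosomal genes and OC genes. In OCs the pair is known to act on shared target genes, and MPs are the cells before RANKL.

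Every value called a score is the Peak Score of the lists, a tag count scaled to a common library size, where a tag is 1 mapped read. One tag was worth 1.71 in the PU.1 MP list and 1.0387 in the MITF MP list. The PU.1 list ran from 10.2 (6 tags) to 414.5 (243 tags), and the MITF list from 9.3 (9 tags) to 136.1 (131 tags). The 36 h MITF list ran from 9.7 to 1012.3 with a median of 23.4. The medians were 12.5 in the MP and 11.4 in the OC MITF list, so a 36 h score is not read as a change in binding. The peaks held 32.0% of the tags implied for the PU.1 library and 0.832% of those implied for the MITF library, and the 349 IgG peaks held 0.185%. Of the PU.1 peaks, 4 overlapped an IgG peak, and 1 of these was co-bound. The IgG library was the shallowest of the 7 at about 3120000 tags, with a lowest peak of 7 tags.

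The strongest MITF sites are shown first because their sequences carry much of what follows. All lie on mm9 and are given 5′ to 3′ on the forward strand of the reference, with each GGAA core (TTCC on this strand where the core lies on the other) in capitals. E-boxes of the forms CACGTG and CATGTG, read on either strand, are in capitals too. The 5 co-bound peaks of highest MITF score lay nearest to Jazf1, Nnmt, Cd302, Sfi1 and Smyd3, and Sf3b2, ranked 10, was added after its sequence had been seen. The windows lie at chr6:52792695-52792845 (Jazf1), chr9:48366926-48367076 (Nnmt), chr2:60126821-60126971 (Cd302), chr11:3005488-3005638 (Sfi1), chr1:181364971-181365121 (Smyd3) and chr19:5291678-5291828 (Sf3b2).
Jazf1: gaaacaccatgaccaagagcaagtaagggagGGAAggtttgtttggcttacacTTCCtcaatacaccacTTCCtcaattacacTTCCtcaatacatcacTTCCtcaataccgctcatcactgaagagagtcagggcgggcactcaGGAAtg
Nnmt: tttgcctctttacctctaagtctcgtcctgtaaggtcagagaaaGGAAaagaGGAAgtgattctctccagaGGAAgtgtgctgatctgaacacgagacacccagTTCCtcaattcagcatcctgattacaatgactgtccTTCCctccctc
Cd302: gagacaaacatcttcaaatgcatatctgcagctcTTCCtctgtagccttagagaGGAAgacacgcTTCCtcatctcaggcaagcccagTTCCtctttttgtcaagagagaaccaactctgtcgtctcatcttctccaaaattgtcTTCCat
Sfi1: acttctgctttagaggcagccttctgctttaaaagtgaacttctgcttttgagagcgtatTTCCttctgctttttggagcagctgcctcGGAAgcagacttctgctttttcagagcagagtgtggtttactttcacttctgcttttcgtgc
Smyd3: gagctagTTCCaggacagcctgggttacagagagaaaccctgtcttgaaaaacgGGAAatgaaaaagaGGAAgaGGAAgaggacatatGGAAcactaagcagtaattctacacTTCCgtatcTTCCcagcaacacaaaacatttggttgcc
Sf3b2: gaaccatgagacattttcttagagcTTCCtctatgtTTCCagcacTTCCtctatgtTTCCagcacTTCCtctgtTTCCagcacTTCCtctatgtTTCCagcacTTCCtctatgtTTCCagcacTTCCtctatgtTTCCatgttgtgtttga

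The Jazf1 intron site had the highest MITF score of all, 136.1 on a PU.1 score of 378.7, and its window held 6 GGAA cores and 4 copies of the PU.1 octamer GAGGAAGT. The Nnmt site had the highest PU.1 score of all, 414.5, with a MITF score of 97.6, 5 cores and 2 octamers. The Sf3b2 intron site scored 75.8 for MITF and 271.2 for PU.1 and held 12 cores and 5 octamers in a tandem repeat. The Cd302 site scored 90.4 for MITF and 394.0 for PU.1, with 5 cores and no octamer. The Smyd3 intron site scored 87.3 for MITF and 324.1 for PU.1, with 7 cores. None of these windows held CACGTG or CATGTG. The Sfi1 site (MITF 89.3, PU.1 319.0, 2 cores) shared a run of 34 identical bases with the sixth site, near Slc22a27 on chromosome 19, so tags at either copy may come from the other and their scores are uncertain.

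For contrast, the PU.1-only peaks of highest PU.1 score lay nearest to Ankdd1a, Slc2a1, Cxcl5, Akr1d1 and Gm17509. They are shown to let their cores be set beside those above. Their windows lie at chr9:65390139-65390289 (Ankdd1a), chr4:118799942-118800092 (Slc2a1), chr5:91171178-91171328 (Cxcl5), chr6:37567460-37567610 (Akr1d1) and chr13:118072944-118073094 (Gm17509).
Ankdd1a: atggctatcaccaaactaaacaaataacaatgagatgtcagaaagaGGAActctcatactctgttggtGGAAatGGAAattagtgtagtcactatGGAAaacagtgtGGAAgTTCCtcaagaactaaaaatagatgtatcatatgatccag
Slc2a1: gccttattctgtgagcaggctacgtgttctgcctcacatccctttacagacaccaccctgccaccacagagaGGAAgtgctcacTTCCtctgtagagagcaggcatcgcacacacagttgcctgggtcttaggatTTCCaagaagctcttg
Cxcl5: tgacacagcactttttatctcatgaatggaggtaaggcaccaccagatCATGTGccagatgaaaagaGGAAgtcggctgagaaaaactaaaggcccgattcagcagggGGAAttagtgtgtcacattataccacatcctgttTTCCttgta
Akr1d1: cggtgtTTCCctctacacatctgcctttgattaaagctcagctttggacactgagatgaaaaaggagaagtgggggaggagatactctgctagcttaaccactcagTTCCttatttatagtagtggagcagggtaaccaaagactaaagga
Gm17509: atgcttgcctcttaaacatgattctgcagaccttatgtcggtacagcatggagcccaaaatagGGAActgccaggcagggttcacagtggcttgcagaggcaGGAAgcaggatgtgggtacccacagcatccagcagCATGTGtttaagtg

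These sites reached PU.1 scores of 312.2 (Ankdd1a), 310.5 (Slc2a1, the main glucose transporter of many cells), 310.5 (Cxcl5, a neutrophil chemokine), 303.6 (Akr1d1, a bile acid enzyme) and 298.5 (Gm17509), within the range of the sites above, without a MITF peak in MPs. They held 6, 3, 3, 2 and 2 cores in that order. The Cxcl5 site had a MITF peak at 36 h (score 66.2) and in OCs (29.7), and the Akr1d1 site had one in OCs (37.7). No MITF peak lay on the Ankdd1a, Slc2a1 or Gm17509 site in either later list.

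Detection of MITF at a PU.1 site moved with the PU.1 score. Over all PU.1 peaks 6.96% were co-bound (interval 6.78% to 7.14%), and PU.1 peaks were split into 10 equal groups by score (deciles). In the lowest decile 1 of 7616 peaks was co-bound (0.0131%). The fifth decile held 7 co-bound peaks (0.0919%), the seventh 44 (0.578%), the eighth 182 (2.39%) and the ninth 824 (10.8%). The highest decile spanned scores of 98.9 to 414.5, and there 4218 of 7615 peaks were co-bound (55.4%, interval 54.3% to 56.5%). Of the 1000 highest PU.1 peaks 927 were co-bound (92.7%, 90.9% to 94.2%), and of the 100 highest 97.

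**Figure D1:**
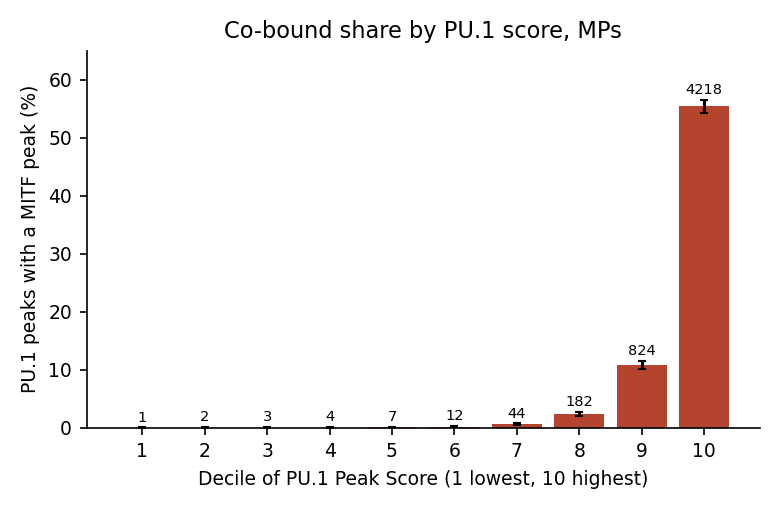
Share of PU.1 MP peaks that overlapped a MITF MP peak (vertical axis, percent) in each decile of PU.1 score (horizontal axis), with 95% Wilson intervals and the number of co-bound peaks above each bar. The share was 0.0131% in the lowest decile, 10.8% in the ninth and 55.4% in the highest.

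From the MITF side, 98.1% of the peaks (97.7% to 98.4%) lay on a PU.1 peak. Of the 5297 co-bound MITF peaks 4218 (79.6%) lay on a PU.1 peak of the highest decile and 5042 (95.2%) on one of the highest 2 deciles, while 17 (0.321%) lay on one of the lowest 5. The median PU.1 score was 148.4 at co-bound and 22.2 at PU.1-only peaks. When the PU.1 list was reduced to its 5402 highest peaks, the number in the MITF list, 65.8% of MITF peaks still overlapped one.

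The 2 factors were centered closely together. Peak centers of a co-bound pair lay a median of 11 bp apart, and 85.7% lay within 25 bp. The largest distance was 149 bp, which the overlap rule sets, since the most common peak width was 150 bp in both lists.

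Within the co-bound pairs the scores of the factors rose together, with a Spearman rho of 0.638 over 5297 pairs. The pairs share cells and genome but not a library, and no p is given because sites of 1 library are not replicates. Over the 927 pairs among the 1000 highest PU.1 peaks rho was 0.498. The median MITF score was 10.4 on PU.1 peaks of the ninth decile and 13.5 on those of the highest.

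**Figure D2:**
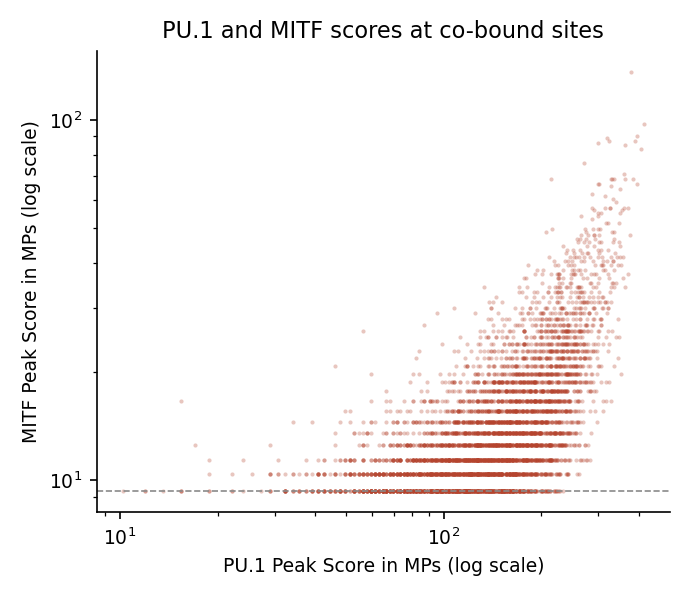
PU.1 score (horizontal axis, log scale) against MITF score (vertical axis, log scale) at the 5297 co-bound sites, 1 point a site, with the lowest score of the MITF list as a dashed line. The median MITF score is 12.5 against the lower limit of 9.3, and the highest, 136.1, is at a site with a PU.1 score of 378.7.

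The ratio of MITF to PU.1 score was compared between sites only, since the antibodies of the 2 libraries may differ in efficiency. Over the 927 pairs the ratio had a median of 0.0894, with quartiles of 0.0689 and 0.116. At that median ratio a MITF score of 9.3, the lowest in the list, corresponds to a PU.1 score of 104. Above this score 57.5% of PU.1 peaks were co-bound, and below it 1.71%. A PU.1-only label at a low PU.1 score thus means that MITF was not detected at this depth, not that it was absent. The SD of the log2 ratio was 0.55, against 0.34 from the counting of tags in both libraries, so sites differed in the ratio by more than counting error.

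The ratio of a site in MPs went with its ratio in OCs, which came from another PU.1 and another MITF library. Over the 770 of these pairs with a peak of both factors in OCs, the rho between the MP ratio and the OC ratio was 0.675, and over all 2813 such pairs it was 0.562. This is a description across sites, which share their sequence and mappability in both cell states. Sites without a MITF peak in OCs have no OC ratio and are left out.

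The number of GGAA cores also went with MITF, a measure chosen after these sequences had been seen. Cores on either strand were counted up to 75 bp from the peak center, and the counts include those inside octamers and ETS-IRF sites. At least 4 cores were found at 47.1% of co-bound peaks (45.8% to 48.4%) and at 34.7% of PU.1-only peaks (34.3% to 35.0%), against 8.17% and 8.33% of same-sized windows 2 kb to either side. The difference was 12.4 percentage points (11.1 to 13.8). Compared within deciles of PU.1 score it was 13.2 points (11.4 to 15.0), and within percentiles (100 equal groups by score) 14.3 (12.4 to 16.2). In the highest decile of PU.1 score the co-bound share was 39.4% with 0 or 1 core, 52.7% with 2 or 3, 59.9% with 4 or 5 and 74.0% with 6 or more, and the intervals of these groups did not overlap. The median PU.1 scores of the groups were 139.9, 143.3, 143.3 and 146.7.

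Among the 927 pairs the median MITF to PU.1 ratio was 0.0716 with 0 or 1 core (64 pairs), 0.0801 with 2 or 3 (413), 0.0981 with 4 or 5 (352) and 0.106 with 6 or more (98). The interquartile ranges of these groups overlapped. In OCs the 34, 332, 310 and 94 of these sites with a peak of both factors gave medians of 0.0811, 0.07997, 0.107 and 0.119. A site without a MITF peak in OCs has no OC ratio. With 0 or 1 core 34 of 64 sites were kept, and with 6 or more 94 of 98. The OC medians and the OC rho below thus cover only sites with MITF detected in OCs, and the effect of this filter was not tested. The rho between the number of cores and the ratio was 0.326 in MPs and 0.318 in OCs. Between the number of cores and the PU.1 score it was 0.04 over the 927 pairs. Over all PU.1 peaks, 4 or more cores were found at 31.25% of the lowest decile of PU.1 score and 40.4% of the highest. With GC content the ratio had a rho of 0.01.

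**Figure D3:**
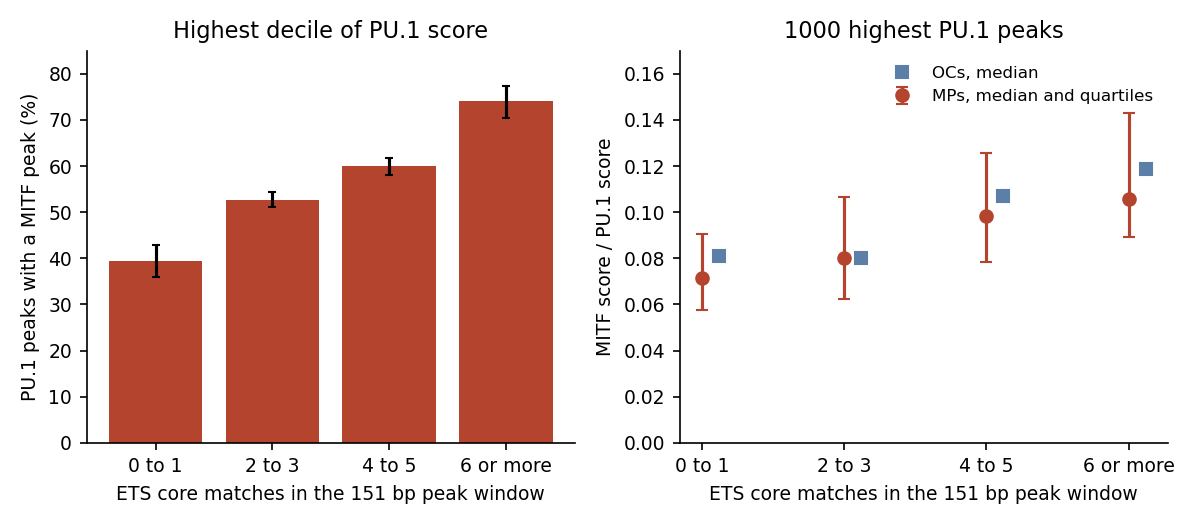
Left, share of PU.1 peaks with a MITF peak (percent, 95% Wilson intervals) in the highest decile of PU.1 score, by the number of ETS core matches. Right, ratio of MITF to PU.1 score at co-bound sites among the 1000 highest PU.1 peaks, as the median with quartiles in MPs and, at the sites with both factors in OCs, the median in OCs. The share rose from 39.4% to 74.0%, and the median MP ratio from 0.0716 to 0.106.

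Motifs for other factors were searched in the same window on both strands. The PU.1 octamer GAGGAAGT was present at 34.3% of co-bound and 21.2% of PU.1-only peaks, a difference of 13.1 points (11.8 to 14.5), with 1.0% and 0.948% in the flanks. This difference went with the PU.1 score. Within deciles of the score it was 3.13 points (1.43 to 4.82), and within percentiles -0.09 points (-1.88 to 1.70). The ETS-IRF composite site, GGAA and GAAA with 2 bases of any kind between, where PU.1 binds with IRF4 or IRF8, was at 12.9% and 6.55% (flanks 1.60% and 1.57%), and the excess held within deciles (2.98 points, 1.82 to 4.13) and percentiles (1.81 points, 0.582 to 3.03).

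E-boxes were not more frequent at co-bound than at PU.1-only peaks beyond counting error. The palindromic E-box CACGTG was present at 2.42% of co-bound peaks (2.04% to 2.87%) and 2.45% of PU.1-only peaks (2.34% to 2.57%), with flanks at 1.79% and 1.95%, below both intervals. The E-box CATGTG was at 11.2% (10.3% to 12.03%) and 11.3% (11.04% to 11.5%), with flanks at 12.9% and 12.6%, above both intervals. The longer forms, known as the M-box, were at 1.17% and 1.19% (TCACGTG, which contains CACGTG) and at 3.98% and 3.51% (TCATGTG, which contains CATGTG). The first longer form was at 0.689% and 0.735% of the flanks, below both intervals (0.914% to 1.50% and 1.11% to 1.27%). The second was at 2.98% and 2.91% of the flanks, also below both intervals (3.49% to 4.54% and 3.38% to 3.65%). At equal PU.1 score CATGTG was rarer at co-bound peaks, with a difference of -2.23 points within deciles (-3.40 to -1.06). Even in the decile of co-bound MITF peaks with the highest MITF scores, from 23.9 to 136.1, CACGTG was at 1.70% and the PU.1 octamer at 46.1%. These matches describe letters in a window and say nothing of how MITF was held there.

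The AP-1 site TGANTCA, bound by FOS and JUN proteins, was at 9.74% of co-bound and 9.55% of PU.1-only peaks (flanks 4.61% and 4.49%), but was rarer at co-bound peaks of equal PU.1 score, with a difference of -3.49 points within deciles (-4.62 to -2.36). Among the 927 pairs it went from 15.1% of sites in the lowest quartile of the MITF to PU.1 ratio to 6.49% in the highest. The C/EBP site TTGCNNAA was at 9.74% and 8.37%, and the RUNX site TGTGGTT at 5.97% and 5.07%, and for both the difference lost its direction within deciles (-0.143 points, -1.22 to 0.932, and -0.156 points, -1.02 to 0.704). The site AGATAA of GATA factors was at 6.46% and 6.60%.

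**Figure D4:**
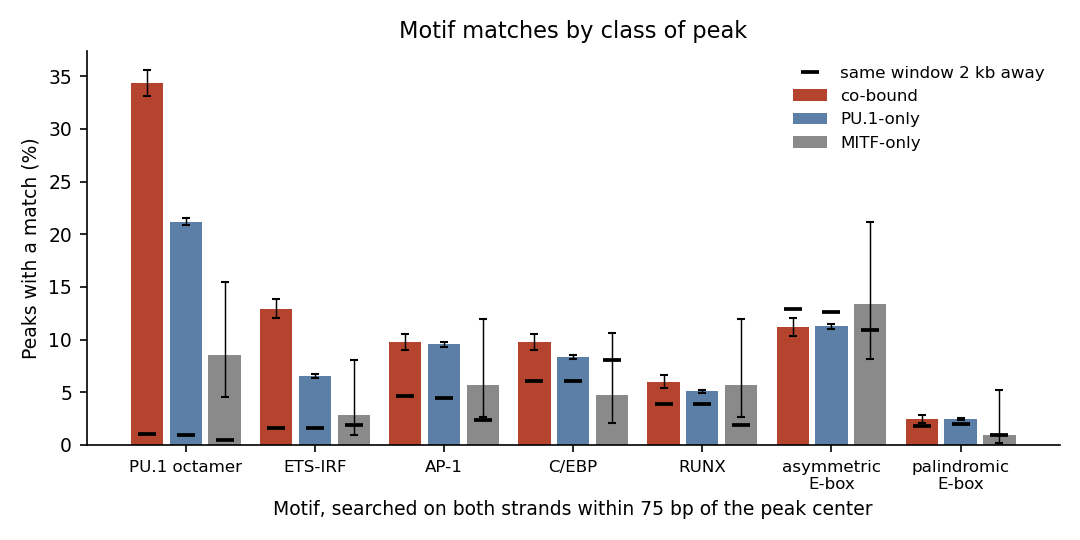
Share of co-bound (5297), PU.1-only (70862) and MITF-only (105) peaks with a match to each motif (vertical axis, percent, 95% Wilson intervals), with the share in windows 2 kb to either side as black dashes. The PU.1 octamer was at 34.3%, 21.2% and 8.57% of the classes, and CACGTG was at 2.42% of co-bound and 2.45% of PU.1-only peaks, against 1.79% and 1.95% in their flanks.

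Distance to genes was compared between the classes. Within 1 kb of a transcription start site (TSS) lay 11.4% of co-bound peaks (10.6% to 12.3%), 14.6% of PU.1-only peaks (14.4% to 14.9%) and 9.52% of MITF-only peaks (5.26% to 16.6%). The first 2 differed by -3.18 points (-4.05 to -2.26). Within deciles of PU.1 score the difference was -0.02 points (-1.20 to 1.16), and the TSS-proximal share of all PU.1 peaks was 11.02% in the highest decile and 16.2% in the fifth. In the highest decile 55.2% of the TSS-proximal and 55.4% of the other PU.1 peaks were co-bound. Between 10 and 100 kb from a TSS lay 46.4% of co-bound and 45.3% of PU.1-only peaks. Over 100 kb from a TSS lay 12.4% of MITF-only peaks (13 peaks, 7.38% to 20.04%), against 5.70% of co-bound (5.11% to 6.36%) and 6.42% of PU.1-only peaks (6.24% to 6.60%). Introns held 51.7% and 50.9%, intergenic sequence 42.8% and 42.4%, and exons 5.49% and 6.75%. Median GC content was 47.0% in both classes.

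MITF was detected after RANKL more often at sites co-bound in MPs than at PU.1-only sites. The 36 h MITF list has peaks of variable width, unlike the other MITF lists, and the part of this in the 36 h shares was not tested. A MITF peak was present at 36 h at 46.9% of co-bound and 1.18% of PU.1-only peaks, a difference of 45.7 points (44.3 to 47.0). In OCs the shares were 53.2% and 1.87%, a difference of 51.3 points (50.0 to 52.7). Compared within deciles of the MP PU.1 score the differences were 32.8 points (31.3 to 34.3) and 35.3 points (33.7 to 36.9), and within percentiles 23.97 and 27.1 points. In the highest decile of PU.1 score 59.8% of co-bound and 17.2% of PU.1-only peaks had a MITF peak in OCs. By MITF score, 22.6% of the lowest decile of co-bound MITF peaks and 96.2% of the highest were present in the OC list, so presence in another MITF library also moved with the score in this one.

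**Figure D5:**
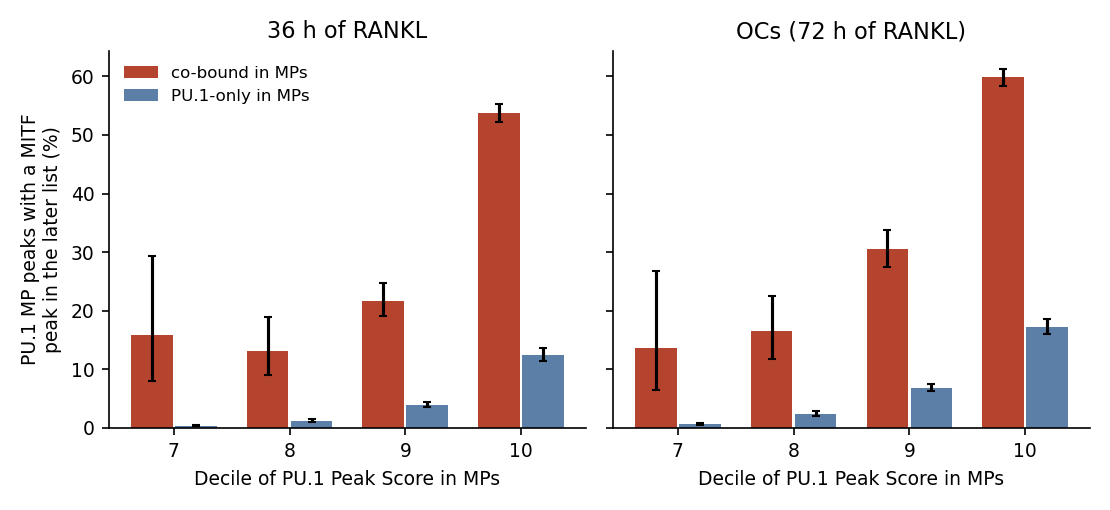
Share of PU.1 MP peaks with a MITF peak after 36 h of RANKL (left) or in OCs (right), for the 4 highest deciles of PU.1 score, split by whether MITF was detected in MPs (95% Wilson intervals). In the highest decile the shares in OCs were 59.8% for co-bound and 17.2% for PU.1-only peaks, and in each of these deciles the intervals of the 2 classes did not overlap.

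PU.1 itself was found again at nearly every co-bound site. A PU.1 peak was present at 99.1% of co-bound peaks at 36 h and at 99.5% in OCs, against 72.0% and 77.3% of PU.1-only peaks. The most common peak width was 190 bp in the 36 h PU.1 list and 150 bp in the MP and OC PU.1 lists. The part of this in the 36 h shares was not tested. Within deciles of PU.1 score the differences between the classes shrank from 27.02 and 22.2 points to 1.06 points (0.592 to 1.52) and 0.448 points (0.142 to 0.754).

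The 105 MITF-only peaks were weak. Their scores ran from 9.3 to 28.0 (9 to 27 tags) with a median of 10.4, and 41 of them had the lowest score of the list. A PU.1 peak center lay within 1 kb of 42, and farther than 10 kb from 39. In a later library 25 had a PU.1 peak (23.8%) and 38 a MITF peak (36.2%), and 54 had neither. The PU.1 octamer was at 9 (8.57%), CATGTG at 14 (13.3%) and CACGTG at 1.

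The 5 highest MITF-only peaks lay nearest to Acoxl, Gm14496, Cr2, Olfml2b and Zfp746. Their 36 h MITF scores come from a list that reaches 1012.3, against 136.1 in MPs, and were not compared with the MP scores. The Acoxl intron site (MITF 28.0) lay 423 bp from a PU.1 peak, held 5 GGAA cores and had a MITF peak at 36 h (379.6) but not in OCs. The Olfml2b site (MITF 20.8) lay 181 bp from a PU.1 MP peak and overlapped a PU.1 peak at 36 h (279.4) and in OCs (248.2) and a MITF peak at 36 h (121.7). The Cr2 site on chromosome 1 (MITF 23.9), 110044 bp from a PU.1 peak, also had a MITF peak at 36 h (120.7) and in OCs (29.7) and no PU.1 peak in any list, and it is shown as the higher of the 2 sites among these 5 with MITF but not PU.1 in all the MP, 36 h and OC lists. It lies at chr1:197067736-197067886 and holds 1 core and no E-box of the forms searched.
Cr2: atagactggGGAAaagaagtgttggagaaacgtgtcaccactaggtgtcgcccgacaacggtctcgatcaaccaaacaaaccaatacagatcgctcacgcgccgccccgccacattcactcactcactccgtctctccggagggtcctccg

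The Gm14496 site (MITF 24.9) and the Zfp746 site (MITF 20.8) lay 51150 and 37273 bp from a PU.1 peak and were found by MITF again at 36 h, with scores of 23.4 and 10.7. The Zfp746 site also had a MITF OC peak of 22.8. Neither had a PU.1 peak in the later lists.

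Each peak was assigned to the protein-coding gene with the nearest TSS, which need not be the gene it acts on. Of 22208 protein-coding genes 15334 were nearest to a PU.1 peak, and 3495 of these had a co-bound peak, 22.8% of the genes with a PU.1 peak and 15.7% of all. One co-bound peak was found at 2416 genes and 2 at 670. The share rose with the number of PU.1 peaks assigned. It was 6.72% with 1 or 2 PU.1 peaks, 20.1% with 3 to 5, 38.9% with 6 to 10 and 71.2% with 11 or more. These shares serve below as backgrounds for the gene lists, and the PU.1 score, with which detection of MITF also moved, was not matched.

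The most co-bound peaks were assigned to Myc, a growth regulator (11 of its 78 PU.1 peaks), then to Rreb1 (9 of 58), Maf (9 of 54), Tmcc3 (9 of 27) and Zeb2 (8 of 95). The genes with the most PU.1 peaks and no co-bound one were 2010111I01Rik with 44, Rybp and Zfp36l1 with 39 each, and Mgat5 and Pard3 with 38 each. The highest PU.1 scores at these 5 genes were 100.6 to 170.6, and at the first 5 they were 201.3 to 348.0.

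Of 18 TFs of OC differentiation that the study named as bound by PU.1 and MITF, all had a PU.1 MP peak and 16 had a co-bound one. The study chose the list on binding in these libraries, so this count is not independent evidence, and the genes had a median of 18 PU.1 peaks each. A co-bound peak was found at 22.8% of all genes with a PU.1 peak and at 71.2% of those with 11 or more. The highest MITF score was at Rbpj, the nuclear effector of Notch signaling, with 57.1 on a PU.1 score of 325.8, at 118360 bp from the TSS. Its window, at chr5:53828583-53828733, holds 5 cores and is shown as the strongest MITF site of a named regulator.
Rbpj: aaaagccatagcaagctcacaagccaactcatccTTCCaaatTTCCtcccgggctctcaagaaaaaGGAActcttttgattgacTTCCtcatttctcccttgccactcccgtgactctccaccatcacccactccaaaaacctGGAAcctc

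Nfatc1, the master regulator of OC formation, had a co-bound intron peak at 16205 bp from its TSS with a MITF score of 47.8 and a PU.1 score of 291.7. Runx1 followed with 39.5 (PU.1 310.5), Myc with 34.3 (PU.1 290.0) and Hif1a with 33.2 (PU.1 259.3). Smad2 had 32.2 on a PU.1 score of only 145.0, and its ratio of 0.222 lay above 0.126, the upper quartile of all 5297 pairs. At a lower PU.1 score a higher ratio is needed for MITF to reach the lowest score of its list. Klf7 reached 28.0 and Klf10 26.0. Bcl6, Fos, Irf8, Junb, Limd1, Notch2, Prdm1 and Yy1 had highest MITF scores between 9.3 (Yy1) and 16.6 (Prdm1). Fosl2, an AP-1 subunit, and Stat3 had no co-bound peak among their 7 and 5 PU.1 peaks, whose highest scores were 42.6 and 150.1. The study took peaks within a set distance of the TSS and reports binding of both factors at all 18 TFs by conventional ChIP. Here a peak nearer to the TSS of another gene is not counted for Fosl2 or Stat3.

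Among other myeloid TFs 12 of 16 with a PU.1 peak had a co-bound one (75%, with a median of 12 PU.1 peaks a gene), near the 71.2% of all genes with 11 or more PU.1 peaks. Maf, a macrophage bZIP factor, led with 51.9 (PU.1 348.0). Cebpb, Egr1, Nr4a1 and Spi1 had none. Spi1, the gene of PU.1 itself, had 9 PU.1 peaks of at most 116.0, and none of these overlapped a MITF peak in MPs. A peak nearer to the TSS of another gene is not counted for Spi1. In the MITF/TFE family 3 of 4 genes had a co-bound peak (75%, with a median of 13 PU.1 peaks a gene), also near that 71.2%. Mitf had 4 co-bound peaks of 30, the highest an intron peak with 20.8 (PU.1 264.4), Tfec had 2 of 13 (19.7) and Tfeb 1 of 13 (11.4). Tfe3 had none, and its 4 PU.1 peaks reached 42.6. Of 11 AP-1 family genes 7 had a co-bound peak (63.6%, with a median of 7 PU.1 peaks a gene), against 38.9% of all genes with 6 to 10 PU.1 peaks. The highest MITF score was at Fosb (38.4, PU.1 249.0), and Fosl1, Fosl2, Jund and Batf2 had none.

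Macrophage marker genes were co-bound at 16 of 20 (80%), and all 20 had a PU.1 peak. They had a median of 8.5 PU.1 peaks a gene, and 38.9% of all genes with 6 to 10 PU.1 peaks were co-bound, without matching for PU.1 score. The fractalkine receptor gene Cx3cr1 had the highest MITF score (42.6, PU.1 276.3), followed by the Fc receptor chain gene Fcer1g at 362 bp from its TSS (41.6, PU.1 245.6). Cd68 had its only PU.1 peak 10 bp from the TSS, and it was co-bound (MITF 36.4, PU.1 233.7). Csf1r, the receptor of CSF1, had 3 co-bound peaks, the highest 16 bp from its TSS (MITF 18.7, PU.1 107.5). Cd14, Lyz2, Fcgr3 and Siglec1 had none.

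Genes of OC function were co-bound at 8 of 20 (40%, with a median of 6 PU.1 peaks a gene), near the 38.9% of all genes with 6 to 10 PU.1 peaks. Atp6v0d2, a proton pump subunit needed for OC fusion, had the highest MITF score (26.0, PU.1 301.9). Mmp9, a matrix protease (14.5), and Tnfrsf11a, which encodes the RANKL receptor (13.5), were also co-bound, as were Tfrc, Tcirg1, Ocstamp, Lif and Scin. No MITF peak in MPs was found at Acp5 (TRAP), Ctsk, Oscar, Calcr, Car2, Itgb3, Clcn7, Ostm1, Tm7sf4 (DC-STAMP), Src, Ccr1 or Ppargc1b. Their highest PU.1 scores were between 23.9 and 133.1. At all but Ctsk, Itgb3 and Src these lay below 104, the PU.1 score that corresponds to the lowest MITF score. MITF was thus not detected at this depth, which does not mean that it was absent. The paper names Acp5, Ctsk, Oscar and Clcn7 as genes that both factors regulate.

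Lysosomal genes are known targets of the MITF/TFE family. Of the 24 with a PU.1 peak 10 were co-bound (41.7%), with a median of 4 PU.1 peaks a gene. The share was 22.8% of all genes with a PU.1 peak and 20.1% of those with 3 to 5, not matched for PU.1 score. Lamp1, a lysosomal membrane glycoprotein gene, led with 44.7 (PU.1 276.3), then Psap with 37.4 (PU.1 226.9) and Ctss, a cathepsin gene, with 35.3 (PU.1 283.2). Ctsb, Ctsd, Hexa, Neu1, Lamp2 and Uvrag were also co-bound, at 9.3 to 22.9. The other 14, among them Gpnmb, Mcoln1, Npc1, Ctsa, Ctsl, Ctsz, Gaa, Atp6v1h, Atp6v0d1, Atp6v1a, Wipi1 and Tpp1, were not, and Sqstm1 had no PU.1 peak.

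Pigment genes, the best known MITF targets of melanocytes, had a PU.1 peak at 6 of 10 and a co-bound one at 3 of these (50%), against 22.8% of all genes with a PU.1 peak. This background was not matched for the number of PU.1 peaks, which ran from 1 (Mlana and Pmel) to 15 (Dct), or for PU.1 score. Tyr, Mc1r, Slc45a2 and Sox10 had no peak of either factor, and Pmel (Si in the list), Oca2 and Trpm1 had PU.1 peaks only. Dct, Tyrp1 and Mlana had co-bound peaks at 426686, 121275 and 22270 bp from the TSS, with MITF scores of 38.4, 14.5 and 15.6.

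Genes of other blood and stromal cells were counted in the same way. None was assigned to the 5 B cell genes, which had 11 PU.1 peaks of at most 37.5, or to the 5 erythroid genes. Cd4 among 5 T cell genes, Csf3r among 5 granulocyte genes and Runx2 among 5 stromal genes had 1 each, with MITF scores of 10.4, 16.6 and 10.4. Among those with a PU.1 peak this was 1 of 3 T cell (33.3%), 1 of 4 granulocyte (25%) and 1 of 5 stromal genes (20%), against 22.8% of all genes with a PU.1 peak. Binding was measured here and not expression, so these counts do not give the share of other cells in the cultures.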

How the data were processed

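Reads were mapped by the authors with Bowtie2 to mm9 after base calling with CASAVA 1.8, and peaks were called and annotated with HOMER, per the labels. Versions of Bowtie2 and HOMER and the peak calling settings are not given in the sources used here. The authors deposited 1 peak list per library, and its score is the tag count of a peak scaled by HOMER. Scores are whole multiples of the worth of 1 tag, to rounding, and library sizes assume HOMER's scale of 10000000 tags.

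Members, gene lists, motifs and alternatives were chosen with earlier results of these data known. Peaks on chromosomes 1 to 19 and X were matched by at least 1 bp of overlap, which left out 84 PU.1 and 11 MITF peaks. Counts of overlapping peaks were checked against bedtools 2.31.1 for 4 pairs of lists and differed by 0. Distances were taken from the peak center to the GENCODE annotation of NCBIM37 (mm9), and sequences from that genome with samtools 1.23.1. Symbols were matched to newer names through RefSeq synonyms (Spi1 is Sfpi1 in the annotation), and Gfi1 is not protein-coding there and has no value. Of 11 motifs, each was sought on either strand up to 75 bp from the center and in windows 2 kb to either side. Shares carry 95% Wilson intervals and differences Newcombe intervals. Comparisons within deciles or percentiles of PU.1 score use Mantel-Haenszel weights. Functions were tested on simulated data.

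Named genes were those of the lists (the highest MITF score of each list and the genes without MITF, and all of the study's TFs), the nearest genes of the 5 highest co-bound, MITF-only and PU.1-only peaks, and the 5 genes with the most co-bound or, lacking these, the most PU.1-only peaks. Others that are named, the number of GGAA cores, and the limits of the 1000 highest PU.1 peaks were chosen after values had been seen. Python 3.11.15, numpy 2.4.6, pandas 2.3.3 and matplotlib 3.10.9 were used. Some genes of the lists are counted but not reported here by name.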

Additional observations from a re-analysis of the deposited data

How the results depend on the processing

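No paired analysis was possible because each condition has 1 library and the labels give no replicate numbers, and for the same reason no library could be left out. Centers within 500 bp gave 7.18% of PU.1 and 98.7% of MITF peaks co-bound, and a reciprocal overlap of 50% gave 97.4% of MITF peaks. At 2 times the lowest score of both lists, with 44337 PU.1 and 1191 MITF peaks left, the shares were 2.67% and 99.5%, rho was 0.508, 8.56% of genes with a PU.1 peak had a co-bound one, the octamer difference was 16.6 points and that of CACGTG -0.541. With the PU.1 list reduced to the size of the MITF list 65.8% of MITF peaks were co-bound. In the highest and lowest decile the shares were 15.4% and 0% with the MITF list at 2 times its lowest score, and 60.6% and 0% with deciles by the PU.1 OC score, which 60040 peaks have. The rank correlation was 0.657 for pairs within 1 kb of a TSS, and Pearson's r of log2 scores 0.609. Genes within 100 kb only gave 22.0%. Within deciles of PU.1 score the TSS difference was -0.022 points, the octamer difference 3.13, the MITF differences 32.8 (36 h) and 35.3 (OCs), and the PU.1 differences 1.06 and 0.448. Within percentiles, added after seeing the data, they were 0.596 (-0.665 to 1.86), -0.090, 23.97, 27.1, 0.744 and 0.299. C/EBP and RUNX changed sign within deciles (-0.143 and -0.156) and percentiles (-0.453 and -0.435), with intervals across 0. For the 9 other motifs and their 45 alternatives, 26 values stayed in the interval of the first value, and the rest left it or are these 4 changes of sign. AP-1 and TCATGTG, whose first intervals lay across 0, changed sign too. AP-1 was at -0.225 with 50 bp on each side, -3.49 within deciles, -2.98 at 2 times the lowest score and -3.72 within percentiles, and TCATGTG at -0.790, -0.961 and -0.829 under the last 3. The cause of these changes was not tested, apart from the smaller lists. The lowest MITF peak has 9 tags and the lowest PU.1 peak 6, and weaker binding was not detectable at this depth.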
